A study of Drosophila melanogaster with 8 samples.

Results

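A list of 36 neuropeptide and peptide hormone genes was followed in the larval brain of Drosophila melanogaster. The list leaves out the peptides of the insulin-producing neurons, leucokinin, the CCHamides, corazonin, Akh and SIFamide. Its members are 36 of the 17224 genes or unmatched features obtained when the deposited counts were summed per gene. RNA was sequenced from pooled brains of 2 genotypes, in 4 libraries each. CS stands for Canton S, a wild-type strain, here at 58 to 62 h after egg laying. STIM KO carries a CRISPR-Cas9 null allele of Stim, the ER calcium sensor of store-operated calcium entry, here at 72 to 76 h after egg laying. The study took these ages as matched in development, but every STIM KO library came from older larvae, and genotype and age cannot be told apart. The study followed feeding and growth of these mutants, and the comparison here is STIM KO against CS.

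Neuropeptides are cut from larger precursor proteins, stored in dense-core vesicles and released by small groups of neurons or endocrine cells to act mostly on G protein-coupled receptors. In the larval brain some of them set feeding and growth, and others act on water balance, muscle and gut movement, moulting or daily rhythm. Many are made by a few large cells. In RNA from whole brains, fewer cells of a type and less RNA per cell cannot be told apart.

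The libraries held between 395680 and 2090717 counted reads, which were 3.6% to 11.6% of all reads. They fell into 2 sets in both genotypes, since replicates 1 and 2 had 9.89% to 18% ambiguous reads and replicates 3 and 4 had 33.5% to 34.5%. Neither the labels nor the methods name this as a batch. Libraries of the same set had Spearman correlations of 0.711 to 0.955, and libraries of different sets 0.483 to 0.673. Each genotype has 2 libraries in each set, so values are also given for each set separately and from a model that adds the set (the set term below). The Stim transcript NM_001298380.1 totalled 20 counts in CS (2, 3, 6 and 9) and 0 in the 4 STIM KO libraries. Another, NM_206747.3, totalled 16 in CS and 38 in STIM KO, so that the summed counts of Stim do not separate the genotypes. Counts scaled to library size (CPM), summed over 5 of 5 neuronal markers with a count, were 1480 to 3908 in CS and 1858 to 3989 in STIM KO, and over 6 of 6 glial markers 1158 to 2312 and 835 to 2953. The 8 of 8 ring gland markers with a count, Akh among them, summed to 1039 to 8206 CPM in CS and 885 to 3205 in STIM KO, and 6 of 6 muscle markers to 733 to 5808 and 539 to 2814. Fat body markers (5 of 7 with a count) reached at most 26.3 CPM, with Fbp1 and Fbp2 at 0, and hemocyte markers (2 of 5) at most 6.41, with Hml, Pxn and srp at 0. Trachea markers (3 of 5) summed to 38.5 to 148 CPM in CS and 17.97 to 70.7 in STIM KO, with btl and trh at 0, and salivary gland markers (3 of 5) reached at most 16.2 CPM, with Sgs3 and Sgs5 at 0. The part of these tissues in the results was not tested.

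Of the 36 genes 9 had no count in any library, and all 9 have 2 or more RefSeq transcripts. The authors counted reads per RefSeq transcript, and a read that matches several transcripts of a gene may be set aside as ambiguous. All 15 genes with 1 RefSeq transcript had at least 1 count, whereas 9 of the 21 with 2 or more had none in any library (42.9%, against 30.3% of all genes with 2 or more transcripts and 18.3% of those with 1). Over all genes the share at 0 was 37.4% with 2 transcripts, 26% with 3 and 19.4% with 4 or more, and the part of shared reads in these zeros was not tested. Exon bases that belong to only 1 annotated transcript numbered 3 in AstC, which encodes allatostatin C, and in the diuretic hormone gene Dh31. They numbered 4 in Eh (eclosion hormone), 13 in natalisin, 30 in NPF (neuropeptide F) and 67 in the tachykinin gene Tk, and these 6 genes were at 0. The other genes at 0 were Nplp4 with 148 such bases, Nplp2 with 158 and CNMa with 282. Of the 9 genes with fewer than 100 such bases, 6 were at 0 and the other 3, AstCC, Gpb5 and Proc, had too few counts to be tested. A count of 0 in the 9 genes at 0 does not show that the transcript was absent. A count of 0 allows up to 3 counts, which is 1.25 to 9.62 CPM depending on the library, and for these genes that floor covers only reads of a single transcript.

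**Figure D1:**
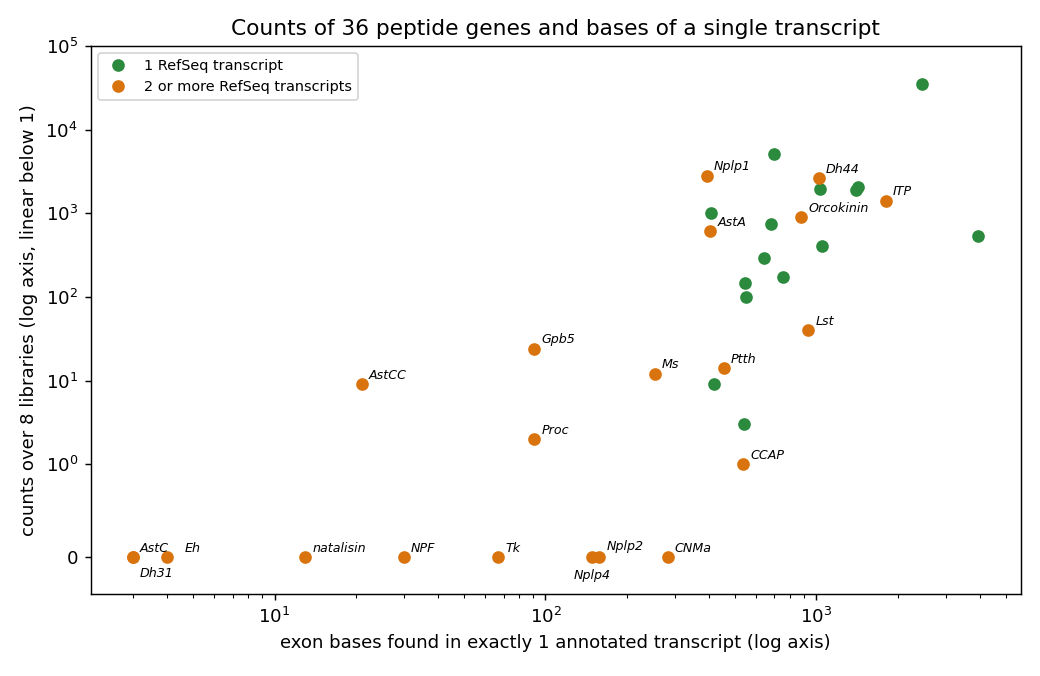
Counts summed over the 8 libraries (vertical, log axis) against the number of exon bases found in exactly 1 annotated transcript (horizontal, log axis), 1 point for each of the 36 genes, green for genes with 1 RefSeq transcript and orange, with names, for genes with more. The 9 genes at 0 all have 2 or more transcripts and between 3 and 282 such bases.

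A further 9 genes had counts but did not pass the expression filter. Among them RYa (RYamide) and Nplp3 have 1 transcript each, so no other transcript of theirs could share reads. RYa counts in the 4 libraries of CS were 0, 1, 0 and 0 and those of STIM KO 0, 0, 5 and 3, and Nplp3 had 3 counts in all. Ptth, which encodes the hormone that drives ecdysone release from the prothoracic gland, reached 0, 0, 4 and 5 in CS, against 0, 1, 1 and 3 in STIM KO. Lst, the gene of limostatin, a hormone of the corpora cardiaca that lowers insulin secretion in the adult fly, reached 0, 5, 3 and 13 in CS, against 3, 0, 6 and 10 in STIM KO. Gpb5 had 24 counts in all, Ms (myosuppressin) 12, AstCC 9, Proc (proctolin) 2 and CCAP (crustacean cardioactive peptide) 1. These 9 genes did not enter the edgeR test, and in each the CPM of the genotypes overlapped (smallest exact permutation p = 0.171, 2-sided). The other 18 genes passed the filter, 13 of them with 1 transcript.

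In CS brains the highest level belonged to sNPF, the precursor of the short neuropeptide F peptides, which promote feeding in the fly. Levels of genes are compared as CPM per kb of the longest annotated transcript, and the levels of genes with several transcripts may be too low where shared reads were set aside. sNPF lies on chromosome 2L from 20027915 to 20056373 and was at 749 ± 348 CPM per kb (SD, n = 4), above 99.4% of the 13135 genes with a count and an annotated length. It was followed by Capa (520 ± 515), whose peptides act on the Malpighian tubules, by Hug (308 ± 244), whose hugin peptides restrain feeding in the larva, and by Gpa2 (249 ± 167), a glycoprotein hormone subunit whose gene lies on an unplaced scaffold (all CPM per kb, SD, n = 4). Mip, Pdf, Nplp1, Dh44, FMRFa and Orcokinin completed the 10 highest as counted, at 184 to 85.0 CPM per kb. The 10 highest lay above at least 89.4% of the genes measured, and amn, the lowest of the 18 genes tested, above 62.7% at 7.29 ± 5.71 CPM per kb (SD, n = 4).

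The order was not firm. Each of the 10 highest genes overlapped its next neighbour in the 4 CS libraries, and the order changed with the library set. Hug had rank 1 in replicates 1 and 2 and rank 5 in replicates 3 and 4, and Capa, at 40.7 to 1009 CPM per kb over the 4 CS libraries, had ranks 12 and 2. In STIM KO sNPF (1334 CPM per kb), Capa (423), Gpa2 (414) and Hug (246) were again the 4 highest. Burs and Pburs encode the subunits of bursicon, the hormone that tans and hardens the cuticle. Burs lay above Pburs per kb in all 8 libraries, by a ratio of 1.28 to 3.97. The ratio of 3.97, in CS replicate 1, rests on 14 counts of Burs and 3 of Pburs.

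None of the 18 peptide genes passed the comparison of the genotypes. By edgeR (quasi-likelihood, Benjamini-Hochberg) 0 of the 18 were under 0.05 after adjustment and 0 before it. Of the 5540 genes tested 0% passed the adjusted threshold, and 6.52% had an unadjusted p under 0.05. With the replicate number as a block 16 of all genes passed the adjusted threshold, and when the library set was added 39 did (0.704%), again with 0 of the 18. No gene of the 18 was free of overlap between the genotypes over all 8 libraries, against 3.21% of all genes tested that lay higher and 3.01% that lay lower in STIM KO without overlap. The smallest exact permutation p among the 18 was 0.114, where 4 libraries against 4 can reach 0.0286 in a 2-sided test. The median log2 fold change of the 18 genes was -0.30, beside 0.04 over all genes tested, and with the set term it was -0.08 beside 0.10. Of the 18, 6 were on the higher side in STIM KO (33.3%, against 52.6% of all genes tested), and with the set term 8 were (44.4%, against 55.9%). A log2 fold change beyond 1 in either direction was found in 0 of the 18 (19.9% of all genes tested), and with the set term in 1, amn (5.56%, against 19.7%).

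**Figure D2:**
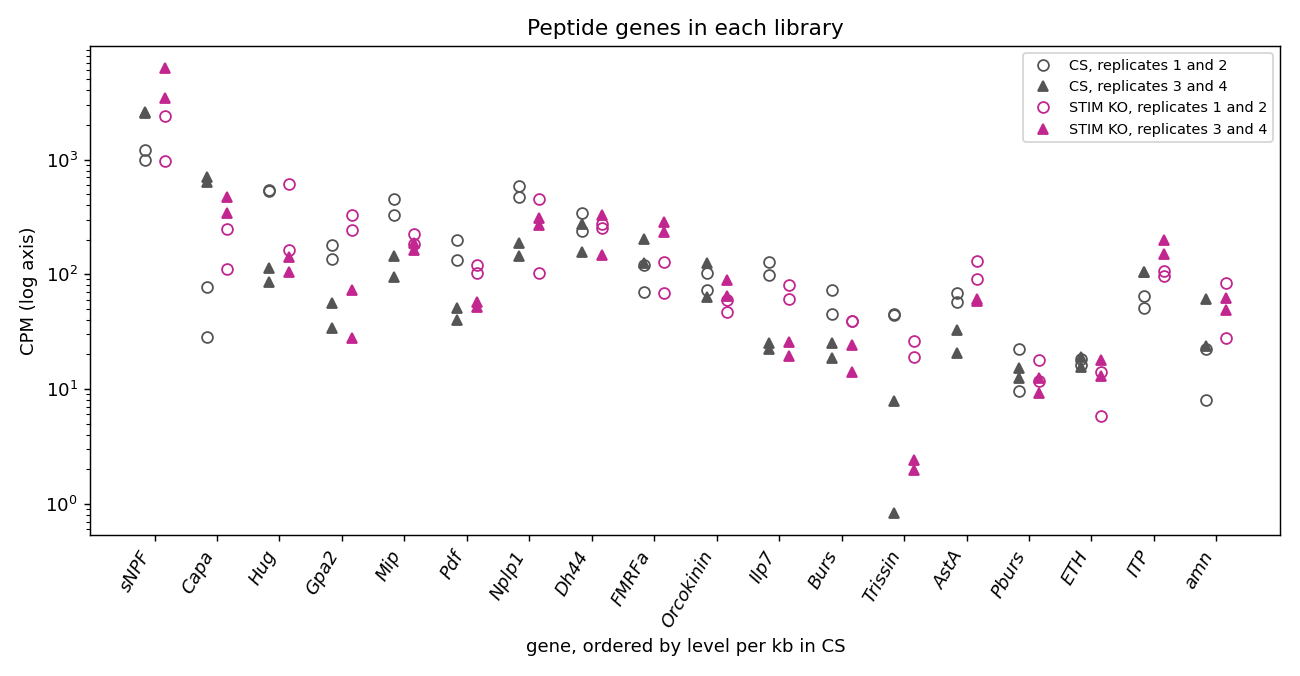
CPM (log axis) of the 18 peptide genes tested, in order of their level per kb in CS, with 1 point for each library, grey for CS and magenta for STIM KO, open circles for replicates 1 and 2 and filled triangles for replicates 3 and 4. The genotypes overlap in all 18 genes, and in CS the open and filled symbols lie apart without overlap in 14 of them, all but Dh44, Orcokinin, Pburs and ETH. The share of all genes tested that lie apart in this way was not taken, so the count of 14 does not set these genes apart.

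Of the 8 peptides of feeding and metabolism 4 were tested, and among them AstA stood higher in STIM KO within each library set. AstA encodes allatostatin A, which restrains feeding in the fly, and lies on chromosome 3R from 24760530 to 24765071. Its CPM in replicates 1 to 4 were 57.7, 68.7, 32.8 and 20.4 in CS, against 130, 91.7, 58.9 and 61.3 in STIM KO. Every STIM KO library was above both CS libraries of its own set, but STIM KO replicates 3 and 4 were below CS replicate 2. The log2 fold change was 0.95 (standard error 0.53, edgeR unadjusted p = 0.104, Benjamini-Hochberg adjusted p = 0.839). With the set term it was 0.996 with a 95% interval from 0.26 to 1.73 (edgeR unadjusted p = 0.0126, Benjamini-Hochberg adjusted p = 0.164). All 611 counted reads of AstA were assigned to 1 of its RefSeq transcripts, and reads that its transcripts share may have been set aside.

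sNPF had 1199, 999, 2554 and 2581 CPM in CS and 978, 2406, 6253 and 3417 in STIM KO. STIM KO was above CS in replicates 3 and 4, while STIM KO replicate 1 was the lowest of the 8 libraries. The log2 fold change was 0.83 (standard error 0.74), and 0.77 with an interval from -0.12 to 1.65 with the set term. Hug had 542, 530, 114 and 86.3 CPM in CS and 162, 608, 141 and 105 in STIM KO, so that replicates 1 and 2 were high in both genotypes apart from STIM KO replicate 1. Its log2 fold change was -0.32 (standard error 0.80) and with the set term -0.09, with an interval from -0.99 to 0.81. Ilp7, an insulin-like peptide of neurons in the ventral nerve cord, was at 22.2 to 127 CPM in CS and 19.3 to 80.1 in STIM KO, a log2 fold change of -0.38 with an interval from -1.12 to 0.37 with the set term.

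Of the 6 peptides that act on water and ion balance 4 were tested, and ITP showed the pattern of AstA. ITP encodes the ion transport peptides, which limit water loss, and lies on chromosome 2R. Of its 4686 exon bases 296 are shared with the gene CG4622, whose part in the reads was not tested. ITP had 64.1, 50.5, 104 and 105 CPM in CS and 107, 96.1, 149 and 199 in STIM KO. Within each set both STIM KO libraries were above both CS libraries, and across the sets STIM KO replicate 2 was below CS replicates 3 and 4. The log2 fold change was 0.76 (standard error 0.45, edgeR unadjusted p = 0.12, Benjamini-Hochberg adjusted p = 0.849). With the set term it was 0.78, with a 95% interval from 0.16 to 1.41 (edgeR unadjusted p = 0.019, Benjamini-Hochberg adjusted p = 0.195). Its counted reads were assigned mostly to NM_138087.6, with 11, 13, 128 and 140 in CS, against 67, 43, 175 and 278 in STIM KO. The next transcript, NM_001169823.2, was counted 0, 1, 50 and 89 times in CS, against 20, 1, 68 and 104 times in STIM KO, and was nearly absent from replicate 2 of both genotypes. Tested by themselves these transcripts gave log2 fold changes of 0.95 (standard error 0.49) and 0.66 (standard error 1.14).

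AstA and ITP were the 2 genes of the 18 with an unadjusted p under 0.05 with the set term (17.0% of all genes tested). Both were higher in STIM KO (11.1%, against 8.94% of all genes tested), and 0 were lower (against 8.03%). They were also the 2 that lay higher in STIM KO without overlap within each set (11.1%, against 9.95% of all genes tested), and 0 lay lower (against 9.31%). These shares are near those of all genes tested. Leaving out 1 library at a time, with the set term, AstA lay between 0.83 and 1.11 on the log2 scale, with an unadjusted edgeR p from 0.0126 to 0.047. ITP lay between 0.68 and 0.88, with an unadjusted edgeR p from 0.0239 to 0.0761, and was past 0.05 without CS replicate 2 (0.0642) and without STIM KO replicate 4 (0.0761). These fits were chosen after seeing the data.

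Capa lies on chromosome 3R from 29912991 to 29914346 and had 76.9, 28.3, 701 and 640 CPM in CS and 247, 112, 473 and 344 in STIM KO. STIM KO was above CS in replicates 1 and 2 and below it in replicates 3 and 4, by 1.80 and -0.73 in mean log2 CPM. The interaction of genotype with set gave an edgeR unadjusted p = 0.00694 (Benjamini-Hochberg adjusted p = 0.195). Dh44, a diuretic hormone related to corticotropin-releasing factor that also acts in feeding and in sleep and wake rhythm, had the closest means, with 343, 237, 271 and 156 CPM in CS and 255, 272, 331 and 147 in STIM KO. Its means were 252 ± 77.8 and 251 ± 76.6 CPM (SD, n = 4), and with the set term its log2 fold change was 0.02 with an interval from -0.74 to 0.77. Gpa2 had 180, 135, 56.3 and 34.2 CPM in CS and 242, 330, 28.0 and 73.2 in STIM KO, higher in replicates 1 and 2 of both genotypes, and a log2 fold change of 0.51 with an interval from -0.33 to 1.35 with the set term.

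Of the 6 moulting peptides 3 passed the filter, Burs, Pburs and ETH, and they lay above 85.9%, 75.9% and 74.0% of the genes measured per kb in CS. ETH encodes ecdysis triggering hormone, which is made by the Inka cells of the trachea and starts the ecdysis sequence. ETH was at 15.4 to 18.9 CPM in CS and 5.82 to 17.9 in STIM KO, from 4 to 41 counts a library. In replicates 3 and 4 the genotypes overlapped, with 17.9 CPM in STIM KO replicate 3 and 15.4 in CS replicate 4. The summed trachea markers (3 of 5 with a count) were lower in STIM KO within each set, and their part in the values of ETH was not tested. Of the 755 exon bases of ETH 683 overlap the antisense gene asRNA:CR43257, and without strand the reads of the 2 genes cannot be told apart. Reads of the overlap may have been set aside as ambiguous, so that the level of ETH per kb may be too low. This was not tested. Burs was at 18.8 to 72.8 CPM in CS and 14.0 to 39.3 in STIM KO, and Pburs at 9.62 to 22.2 and 9.18 to 17.97. Their log2 fold changes with the set term were -0.41 for ETH, -0.39 for Burs and -0.26 for Pburs, each with an interval that holds 0.

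Of the 8 peptides that act on muscle and gut or as modulators 2 passed the filter, Mip and FMRFa. Mip encodes the myoinhibitory peptides, ligands of the sex peptide receptor, and had 330, 457, 144 and 94.6 CPM in CS and 185, 226, 187 and 161 in STIM KO. Its 4 STIM KO libraries lay within the range of CS, below it in replicates 1 and 2 and above it in replicates 3 and 4. Its interaction with the set gave an edgeR unadjusted p = 0.0208 (Benjamini-Hochberg adjusted p = 0.24). FMRFa, whose peptides enhance muscle contraction, had 70.5, 121, 203 and 125 CPM in CS and 68.9, 128, 285 and 233 in STIM KO, and a log2 fold change of 0.36 with an interval from -0.41 to 1.12 with the set term.

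All 5 genes grouped as peptides of the clock, memory and other neurons passed the filter. Pdf, which encodes the pigment-dispersing factor of the clock neurons, had 199, 133, 50.3 and 39.6 CPM in CS and 120, 102, 51.7 and 57.3 in STIM KO. Its log2 fold change was -0.14 with an interval from -0.87 to 0.58 with the set term. Nplp1, the precursor of several peptides found in brain extracts, had 474, 592, 144 and 186 CPM in CS and 102, 450, 311 and 269 in STIM KO, with the lowest value in STIM KO replicate 1. Orcokinin had 103, 72.8, 126 and 63.3 CPM in CS and 59.9, 46.6, 64.7 and 89.0 in STIM KO, and the genotypes overlapped through STIM KO replicates 3 and 4 (log2 fold change -0.49 with an interval from -1.27 to 0.28 with the set term). The gene amn (amnesiac), needed for memory in the adult fly, was at 8.09 to 60.9 CPM in CS and 27.7 to 83.9 in STIM KO. Its counts in replicates 1 and 2 were 7 and 4 in CS, against 84 and 19 in STIM KO. STIM KO was above CS there by 1.72 in mean log2 CPM, and by 0.52 in replicates 3 and 4. The gene shares 140 of its 3953 exon bases with Hers, whose part in the reads was not tested. The log2 fold change of amn with the set term was the highest of the 18, at 1.04 with an interval from -0.20 to 2.28. Trissin, the gene of a cysteine-rich peptide, was at 0.834 to 44.9 CPM in CS and 1.98 to 26.2 in STIM KO, and had the lowest, at -0.97 with an interval from -2.29 to 0.36. Its values rest on 2 to 22 counts a library.

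**Figure D3:**
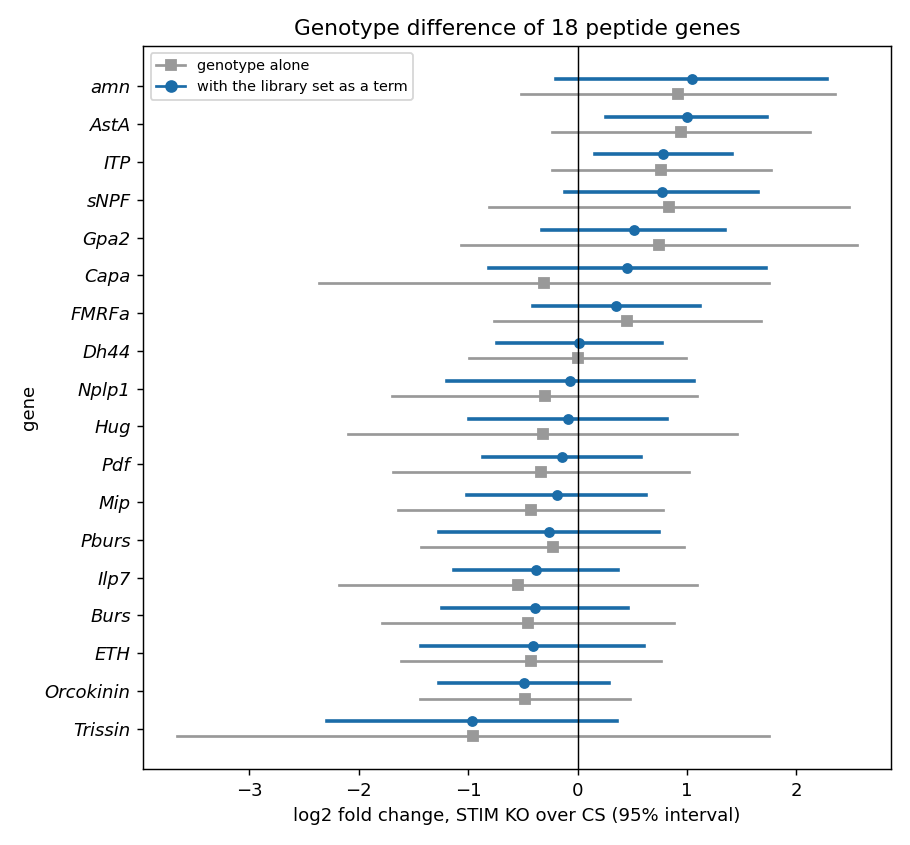
Log2 fold change of STIM KO over CS for the 18 genes, for genotype alone (grey squares) and after adding the library set (blue circles), with 95% intervals as bars. With the set term the intervals of AstA and ITP lie above 0, those of the other 16 hold 0, and those of Hug, Dh44 and Pdf lie between -1 and 1.

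The interval of the log2 fold change, set term included, lay between -1 and 1 in 3 of the 18 genes, Hug, Dh44 and Pdf. In the other 15 it reached past 1 or -1, so that a change of that size was not excluded by these libraries. With genotype alone it was not excluded for Hug (interval from -2.10 to 1.46) or Pdf (-1.69 to 1.02) either. Dh44 then ran from -0.99 to 0.99. Within the sets 11 genes lay lower in STIM KO in replicates 1 and 2, and 7 did so in replicates 3 and 4. The sign of the difference was the same in both sets in 12 genes and opposite in 6, namely Capa, Hug, Mip, Pdf, Nplp1 and Dh44. For these counts of intervals and signs no share over all genes tested was taken, so they do not set the 18 genes apart. The interaction passed the adjusted threshold in 0 of the 18 (edgeR, Benjamini-Hochberg, 0.0722% of all genes tested), and Capa and Mip were the 2 with an unadjusted p under 0.05 (11.1%, against 15.4% of all genes tested).

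**Figure D4:**
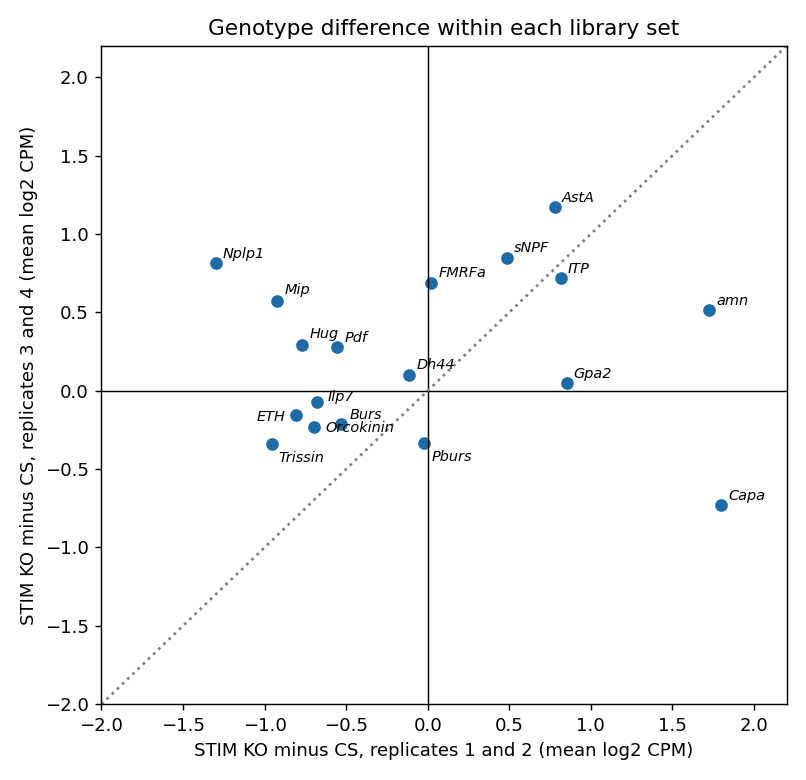
Difference in mean log2 CPM of STIM KO minus CS in replicates 1 and 2 (horizontal) and in replicates 3 and 4 (vertical), 1 point for each of the 18 genes, with a dotted line where both would be equal. AstA, ITP, sNPF, amn, Gpa2 and FMRFa lie above 0 on both axes, and Capa has the widest gap, at 1.80 and -0.73.

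More of the 18 genes differed between the library sets than between the genotypes. The sets were drawn from read statistics of these same libraries, so this comparison is not an even one. Between replicates 3 and 4 and replicates 1 and 2, allowing for genotype, 12 of the 18 genes passed 0.05 (edgeR, Benjamini-Hochberg, 66.7%, against 50.0% of all genes tested). Of these, sNPF, Capa, ITP and FMRFa were higher in replicates 3 and 4 (22.2%, against 26.7% of all genes tested). AstA, Hug, Ilp7, Gpa2, Burs, Mip, Pdf and Trissin were lower there (44.4%, against 23.3%). The difference reached 2.37 on the log2 scale for Capa and -3.33 for Trissin. Trissin rested on few counts, 14, 22, 17 and 2 in CS, against 19, 18, 5 and 4 in STIM KO. The labels give no origin for these sets.

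The receptors of these peptides could be read for fewer genes. Of 30 receptor genes listed, 20 had a count and 10 passed the filter. A receptor without a count is not shown to be absent, since reads shared by several transcripts may have been set aside. Among the 10 tested, 0 passed the adjusted threshold of edgeR with or without the set term. With genotype alone 1 had an unadjusted p under 0.05 and was higher in STIM KO (against 3.56% of all genes tested), and 0 were lower (against 2.96%). This was CNMaR, the receptor of the CNMamide peptide, at 57.7, 60.6, 70.2 and 56.7 CPM in CS and 81.9, 157, 157 and 106 in STIM KO, without overlap (exact permutation test, 2-sided, p = 0.0286), as were 3.21% of all genes tested. Its log2 fold change was 1.03 (standard error 0.40), and edgeR gave a Benjamini-Hochberg adjusted p of 0.696 (0.148 with the set term). CNMa itself was among the genes at 0. With the set term TkR86C, a tachykinin-type receptor that responds to natalisin, had an unadjusted p under 0.05 as well, from counts of 0, 0, 25 and 19 in CS, against 3, 0, 82 and 41 in STIM KO (log2 fold change 1.73, standard error 0.70, edgeR unadjusted p = 0.0311, Benjamini-Hochberg adjusted p = 0.241). That made 2 of the 10 receptors higher and 0 lower, against 8.94% and 8.03% of all genes tested. FMRFaR, the receptor of the FMRFa peptides, did not pass the filter and is named after its values were seen. Its counts were 0, 0, 6 and 5 in CS, against 11, 4, 6 and 6 in STIM KO. In CPM the genotypes did not overlap (exact permutation test, 2-sided, p = 0.0286), but replicate 3 had 2.77 CPM in CS and 2.90 in STIM KO, and the counts of 0 in CS replicates 1 and 2 allow up to 9.62 and 6.06 CPM. Any full separation of 4 libraries from 4 gives this p. The share of such genes among those that did not pass the filter was not taken. Other receptors that did not pass the filter overlapped between the genotypes and went both ways. AstA-R1 had counts of 0, 1, 2 and 4 in CS, against 31, 11, 3 and 7 in STIM KO. AstA-R2 had 4, 5, 5 and 4 in CS, against 0, 1, 2 and 4 in STIM KO. Proc-R had 1, 5, 2 and 3 in CS, against 0, 1, 0 and 1 in STIM KO.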

How the data were processed

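RNA of larval brains was sequenced in 4 CS and 4 STIM KO libraries. The deposited values are raw counts of reads per RefSeq transcript, made by the authors with htseq-count after mapping to dm6 with hisat2. The annotation, the counting mode and the use of strand are not given in the sources used here. The authors' table of their own DESeq2 comparison holds mean normalized counts, fold changes and p-values and was not used.

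Of 34463 features 34399 were matched to genes of the RefSeq table of the Release 6 assembly without the version number, and their counts were summed per gene. Positions and lengths came from the Ensembl annotation of the same assembly, in which all 36 genes had the RefSeq positions. Lengths of single RefSeq transcripts were not used, so the level per kb rests on the longest annotated transcript of the gene. Libraries of a genotype differed beyond sampling noise over the tested genes (lowest chi-square over its degrees of freedom 6.64). The sample titles call the libraries biological replicates, and their RNA was isolated separately. Nothing else says how independent they are, so p-values measure the spread between these libraries.

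The tests used edgeR 4.0.16 under R 4.3.3. filterByExpr (10 counts, 15 in total) kept 5540 genes, TMM factors scaled the libraries, and p-values of glmQLFTest were adjusted after Benjamini and Hochberg over all of them. CPM rest on the same genes and factors, with 2 counts added for log2 values. Floors of 3 counts cover counting error only. Exact permutation tests ran over 70 labelings. The steps were tested on simulated data. DESeq2 1.42.0 and limma 3.58.1 served as alternatives, as did other normalizations and filters, transcripts as features, the library set as a term, the replicate number as a block, subsets of replicates and leaving out each library. Residuals of same-numbered libraries correlated between genotypes at 0.377 to 0.776, and those of other numbers of the same set at 0.336 to 0.716.

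All 36 genes are named. Values of every library are given for the 10 highest in CS and for peptide genes with an unadjusted p under 0.05 with or without the set term, without overlap between genotypes, or with an interaction past the threshold. Receptors were named for an unadjusted p under 0.05, and FMRFaR, AstA-R1, AstA-R2 and Proc-R were added after their values were seen. The genes, lists, the set term and tests were chosen with earlier results of these data known. Figures used matplotlib 3.10.9.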

Additional observations from a re-analysis of the deposited data

Results flagged for a closer look

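In STIM KO, Hug had 608 CPM in replicate 2 against 162, 141 and 105 CPM in replicates 1, 3 and 4, a gap wide enough to set that library apart from the other 3. This was the only such case among the 18 genes tested in each genotype, 36 groups of 4 libraries in all, of which chance would set apart about 1 in 20. In CS, replicates 1 and 2 had 542 and 530 CPM of Hug.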

How the results depend on the processing

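None of the 18 genes had an adjusted p under 0.05 under any alternative, and the smallest was 0.144. Of 376 results of single genes under alternatives 347 kept their direction and 29 reversed, all from a value without a call. Of the 18 genes 11 never reversed. The count of all genes with an adjusted p under 0.05 was 0 by edgeR with genotype alone (361 had an unadjusted p under 0.05). It was 2 with library size only, 78 with DESeq2, 38 with limma voom, 4 with every gene with at least 1 count, 2 with CPM above 1 in at least 2 libraries, 39 with the set term, 133 in replicates 1 and 2 only and 0 in replicates 3 and 4 only. It stayed at 0 in each fit of genotype alone that left out 1 library. With the set term kept it was 14, 2, 11 and 41 without CS replicates 1 to 4 in turn, and 62, 5, 21 and 12 without STIM KO replicates 1 to 4. With the set term and every gene with at least 1 count it was 460. The last 2 kinds of fit were chosen after seeing the data. With the replicate number as a block it was 16, and this block changed no call of the 18 genes, Capa being at 0.45.
The log2 fold changes of 7 genes turned sign. Hug became 0.049 with limma voom, 0.17 in replicates 2 to 4 and 0.26 in replicates 3 and 4 only. Dh44 became 0.062 with library size only, 0.057 with every gene with at least 1 count, 0.056 with CPM above 1 in at least 2 libraries, 0.016 with the set term, 0.13 in replicates 2 to 4 and 0.12 in replicates 3 and 4 only. Capa became 0.45 with the set term and 1.81 in replicates 1 and 2 only. Gpa2 became -0.045 with limma voom. In replicates 3 and 4 only Mip became 0.51, Pdf 0.24 and Nplp1 0.77, and with limma voom they became 0.28, 0.14 and 0.54. Nplp1 was 0.092 in replicates 2 to 4. Leaving out each library gave -1.26 to 0.0076 for Hug, -0.17 to 0.19 for Dh44, -0.72 to 0.22 for Capa, -0.61 to 0.11 for Pdf and -0.66 to 0.040 for Nplp1. The cause was not tested. The 10 genes highest in CS remained the 10 highest without length scaling and in replicates 3 and 4, and 8 of them did in replicates 1 and 2.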
